A study of Homo sapiens with 24 samples.

Results

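In PEO4 ovarian carcinoma cells exposed to the G-quadruplex ligand pyridostatin (PDS), 116 of 28277 genes had a higher mean level at 2 h than at 0 h and a lower one again at 6 h. They were chosen by their CPM, the count of a gene scaled to the same total in every library, in the PEO4 B libraries, as means of 3 replicates. A gene belonged if its 2 h mean was at least 5 CPM and at least 2 times its 0 h mean, and if its 6 h mean was at most 50% of its 2 h mean. One gene that met these limits is left out by the rule. The changes in PEO4 B are therefore how the genes were found, and their sizes are given below as a description without a test. Of the 116 genes, 106 are protein coding, and among the 10 non-coding RNA genes are MALAT1 and LINC00673. A further 359 genes met the same limits at 2 h but stayed above 50% of their 2 h mean at 6 h, and these held genes serve as the comparison set.

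PEO1 and PEO4 are high-grade serous ovarian carcinoma lines derived from 1 patient, PEO1 before and PEO4 after resistance to platinum-containing chemotherapy developed. The B pair comprised PEO1 cells with genotype BRCA2+, which carry a spontaneous reversion that restores BRCA2, and PEO4 cells, wild type by their label. According to the paper, PEO4 also carries a reversion mutation, which restores the BRCA2 reading frame. Each B line was left untreated (0 h) or kept in medium with 5 µM PDS for 2 or 6 h. There were 3 replicates per condition and 18 libraries in all. The A pair comprised untreated PEO1, which is wild type by its label and lacks BRCA2 function, and untreated PEO4, with 3 replicates each and 6 libraries in all. The A lines thus differ in BRCA2 function, whereas in the B pair both lines carry a reversion. The methods add sodium pyruvate to the medium of the A pair. All cells were kept in RPMI medium with Glutamax and fetal bovine serum. Both pairs yielded poly(A) RNA, and a vehicle-treated group was not analysed here, so that PDS, its solvent and the medium change cannot be told apart.

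G-quadruplexes are stacked 4-stranded structures formed by guanine-rich DNA, and PDS binds and stabilizes them. Genes that respond to a stimulus within a few hours and then return toward their starting level are typical of immediate early and other rapid responses. The matricellular genes CCN1 and CCN2, targets of serum response factor and of the YAP and TEAD factors, are textbook examples.

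The libraries held 18699929 to 22375644 counts in the untreated B groups and 33260167 to 43713947 in the PDS-treated B groups, against 32528913 to 63882077 in the A groups. Ribosomal RNA genes took 0.217% to 0.474% of the counts in the untreated B libraries and 0.0163% to 0.0369% in the treated ones. Depth and ribosomal RNA share thus moved with treatment in both lines, and their part in the results was not tested. The 9 epithelial marker genes were PAX8, WT1, EPCAM, MUC16, MSLN and the keratins KRT7, KRT8, KRT18 and KRT19. All were detected in PEO4 B and summed to 7375 to 9804 CPM at 0 h, 6517 to 7377 CPM at 2 h and 7018 to 7155 CPM at 6 h. Keratins made up most of these sums. MUC16 fell from a mean of 586 CPM at 0 h to 259 CPM at 2 h and 49.4 CPM at 6 h, and MSLN from 697 to 272 and 128 CPM. At 2 h the means of EPCAM, KRT7 and KRT19 lay above 0 h and those of the others below. Of 8 markers of blood, stromal and endothelial cells, 3 were at 0 counts in PEO4 B at 0 h and at 2 h. The 8 together summed to 24.8 to 43.4 CPM at 0 h and 11.8 to 13.7 CPM at 2 h, with COL1A1 at a mean of 23.7 CPM at 0 h and 5.76 CPM at 2 h. The part of such cells in the results was not tested. CD14, 1 of these 8 markers, is itself among the 116 genes. In these bulk libraries a change in a cell type's number cannot be told apart from a change in RNA per cell.

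Replicate 2 stood apart in both the 0 h and the 2 h group of PEO4 B. At 2 h it gave the highest of the 3 values for 103 of the 116 genes, with a median ratio of 1.22 to the mean of the other 2 libraries, against 7522 of 17020 genes and a median ratio of 1.02 over all genes tested. At 0 h it was highest for 76 of the 116, and for 22 of the 116 it was at least 2 times the mean of the others. Over all 17020 genes tested the counts at 0 h were 5854 and 456. Without replicate 2 at 2 h the rule gave 96 genes, all of them among the 116. Without replicate 2 at 0 h it gave 135 genes, 115 of them among the 116.

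The 116 genes together held 0.198% to 0.257% of all counts in the 3 PEO4 B libraries at 0 h, 0.719% to 1.04% at 2 h and 0.258% to 0.275% at 6 h. In the PEO1 B libraries the same genes held 0.357% to 0.376% of the counts at every time, above untreated PEO4 B and below PEO4 B at 2 h, and the 9 PEO1 B values spanned less than the 3 PEO4 B values at 0 h alone. The highest share at 2 h, 1.04%, was that of replicate 2. MALAT1 and TALAM1 both enter these sums, although TALAM1 was counted at 94.7% to 98.7% of the MALAT1 counts in the B libraries. MALAT1 was itself highest at 2 h in replicate 2, and the shares were not recomputed without this pair.

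**Figure D1:**
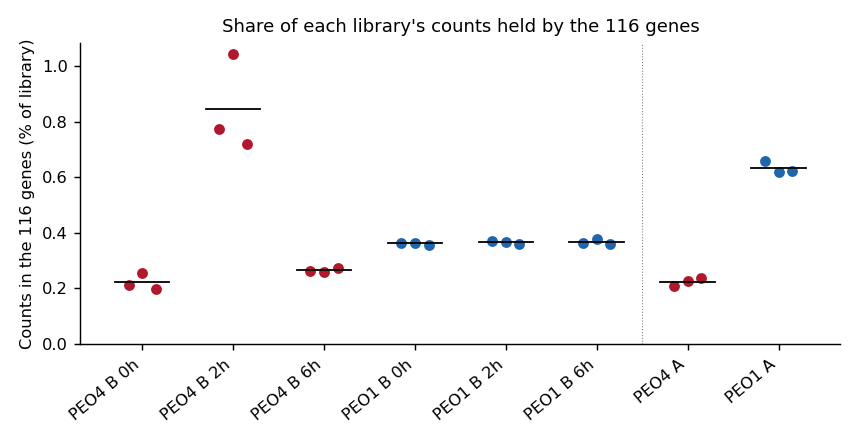
Percentage of each library's counts that fell in the 116 genes, by group, with 1 dot per library, a bar at the mean of 3 libraries and the A pair to the right of the dotted line. PEO4 B at 2 h is the one group of the B pair above 0.719%, and the PEO1 B groups lie at 0.357% to 0.376% at every time.

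The median ratio of the 2 h to the 0 h mean in PEO4 B was 3.49 and ranged from 2.00 for POLR3GL to 52.5 for PLEKHS1, named here after its values were seen, which had a mean of 0.137 CPM at 0 h. It was at least 4 for 47 genes and at least 10 for 14. The median ratio of the 2 h to the 6 h mean was 2.96, with the largest value, 13.8, for GBP2. By 6 h the members stood at a median of 1.09 times their 0 h mean (interquartile range 0.812 to 1.57). A total of 68 genes lay within a factor of 1.5 of their 0 h mean, 20 remained at least 2 times above it and 7 had dropped to 50% or less of it. For all 116 genes every 2 h library lay above every 0 h and 6 h library, which held for 13.5% of the 17020 genes tested, and nothing is read from it because the rule used these libraries.

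**Figure D2:**
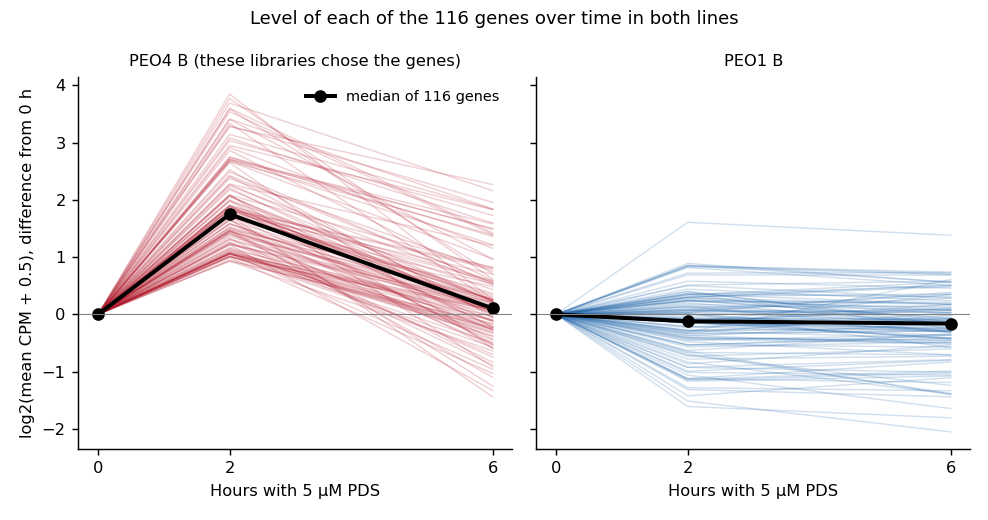
Change of each of the 116 genes from its own 0 h level, as log2(mean CPM of 3 libraries + 0.5), against hours with PDS, with thin lines for genes and a black line for their median. The PEO4 B lines go up and down because the genes were chosen for it, whereas the PEO1 B median stays close to 0 at 2 and 6 h.

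Among the secreted and matrix proteins, 22 of the 116 genes, stood both matricellular genes CCN1 and CCN2, whose products sit in the matrix and signal through integrins. CCN2 (chromosome 6, 131948176 to 131951372, minus strand) was measured in PEO4 B at 128, 109 and 45.8 CPM at 0 h, at 571, 658 and 553 CPM at 2 h and at 60.6, 67.4 and 59.1 CPM at 6 h. The 2 h libraries stood 6.31-fold above 0 h and 9.53-fold above 6 h on average, and the 6 h values lay within the spread of the 0 h ones. CCN1 (chromosome 1, 85580761 to 85583950) had 184, 183 and 103 CPM at 0 h, 707, 819 and 707 CPM at 2 h and 216, 221 and 237 CPM at 6 h, a 2 h mean 4.75 times the 0 h mean with all 6 h libraries above all 0 h libraries. ANKRD1, named after its values were seen, is an ankyrin repeat protein of the nucleus and sarcomere and another gene of the YAP and TEAD target list, and had 2.10, 2.83 and 1.61 CPM at 0 h, 11.9, 14.8 and 10.7 CPM at 2 h and 2.63, 2.23 and 3.08 CPM at 6 h. Of the 22 genes of that list, which was drawn up after the members had been seen, these 3 were members, against 0.682% of all genes tested. Of its 22 genes 4 had a 2 h mean of at least 2 times the 0 h mean and 8 had one of 50% or less. Over all genes tested these shares were 5.90% and 14.6%.

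The promoters of CCN2 and ANKRD1 are shown because both held repeats of GGAATG, the core letters of the TEAD recognition site. Each stretch is the 250 bases before the gene's RefSeq start on GRCh38.p14, read 5′ to 3′ along the gene's strand, with the letters of every motif searched in capitals. CCN2 is on the minus strand at chr6:131951373-131951622 and ANKRD1 on the minus strand at chr10:90921088-90921337.
CCN2: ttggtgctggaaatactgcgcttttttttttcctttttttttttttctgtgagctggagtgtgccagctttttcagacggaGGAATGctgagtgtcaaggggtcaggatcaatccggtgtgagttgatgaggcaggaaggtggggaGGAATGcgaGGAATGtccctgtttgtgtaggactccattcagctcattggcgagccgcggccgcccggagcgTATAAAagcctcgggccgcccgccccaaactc
ANKRD1: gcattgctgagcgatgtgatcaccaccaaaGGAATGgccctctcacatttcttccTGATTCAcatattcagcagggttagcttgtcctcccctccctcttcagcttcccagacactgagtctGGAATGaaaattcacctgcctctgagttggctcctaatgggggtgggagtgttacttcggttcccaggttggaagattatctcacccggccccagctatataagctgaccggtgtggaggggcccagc

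In CCN2 the 3 copies of GGAATG begin at positions -169, -104 and -95 from the start, and TATAAA begins at -32. ANKRD1 held copies at -220 and -128, together with TGATTCA, a match to TGANTCA, at -195. Repeats were not particular to members of the YAP and TEAD list. TMEM132E held copies at -224 and -217, and CD58, named after its promoter was seen, at -230 and -219. Repeated copies were not counted over all promoters. GGAATG on either strand was found in 12 of the 88 members with a promoter in the table (13.6%), in 14.0% of all 35116 promoters and in 11.8% of the 12914 promoters of genes tested, so its share among the members was near the background.

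INHBA encodes the subunit of activin A, a ligand of the TGF-beta family. Its level in PEO4 B was 13.1, 28.4 and 10.6 CPM at 0 h, 163, 194 and 161 CPM at 2 h and 82.1, 83.2 and 91.4 CPM at 6 h. The ratio of the 2 h to the 6 h mean, 2.02, placed it just inside the rule, and at 6 h it was still 4.92 times its 0 h mean. SERPINE2, a secreted inhibitor of serine proteases, went from 5.89, 22.0 and 3.47 CPM to 117, 172 and 90.7 CPM at 2 h and to 26.4, 28.5 and 29.9 CPM at 6 h. IGFBP5, which binds insulin-like growth factors, had 0.685, 5.99 and 0.553 CPM at 0 h, 37.2, 53.3 and 27.1 CPM at 2 h and 3.27, 3.55 and 5.05 CPM at 6 h. In all 3 genes replicate 2 was the highest of the 0 h libraries, and for IGFBP5 it exceeded every 6 h library. MMP2, a matrix metalloproteinase named after its values were seen, also had its highest 0 h value in replicate 2 (1.78, 8.07 and 1.71 CPM) and reached 21.8, 26.7 and 17.7 CPM at 2 h.

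The cytoskeletal and adhesion genes numbered 23. VIM, the mesenchymal intermediate filament protein vimentin, had 8.82, 29.5 and 3.47 CPM at 0 h, 124, 152 and 105 CPM at 2 h and 41.0, 51.7 and 60.2 CPM at 6 h, a mean ratio of 9.11 at 2 h. CDH6, a cadherin, had 20.7, 58.3 and 17.2 CPM at 0 h, 228, 231 and 195 CPM at 2 h and 83.6, 82.6 and 83.1 CPM at 6 h. Both genes stood at 6 h above every 0 h library, VIM 3.66-fold and CDH6 2.59-fold above the 0 h mean. TMSB4X, which encodes an actin monomer-binding peptide, was 2.06 times higher at 2 h, going from 202 ± 11.6 to 418 ± 89.7 CPM, and CSRP1, a LIM domain protein of actin bundles, 2.57 times higher, going from 129 ± 24.5 to 331 ± 34.6 CPM (SD, n = 3 each). KRT15, a basal epithelial keratin, ended at 9.33, 8.62 and 9.31 CPM, under its 0 h values of 24.8, 16.7 and 25.5 CPM, after 63.7, 99.8 and 51.8 CPM at 2 h. Of 15 mesenchymal genes in a list drawn up after the members had been seen, VIM, MMP2 and LOXL2 were members, and SNAI1, SPARC and THBS1 were among the held genes. Of the 14 tested, 6 had a 2 h mean of at least 2 times the 0 h mean and 2 had one of 50% or less, against 5.90% and 14.6% of all genes tested.

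Transcription and signalling regulators made up 25 genes. KLF7, a Krüppel-like transcription factor, had 18.8, 24.4 and 20.2 CPM at 0 h, 93.4, 92.1 and 82.3 CPM at 2 h and 24.6 to 25.1 CPM at 6 h. KLF4, a pluripotency and epithelial differentiation factor of the same family, had 16.8, 26.6 and 14.7 CPM, then 74.4, 84.4 and 62.0 CPM, and finally 27.3, 30.1 and 30.6 CPM. NR4A3, an orphan nuclear receptor of the immediate early class, went from 2.01, 2.46 and 1.46 CPM to 8.81, 13.2 and 5.82 CPM and back to 1.30, 0.879 and 1.46 CPM, below its 0 h range in 2 of 3 libraries. ERRFI1, an inhibitor of the EGF receptor, was 3.44 times higher at 2 h and stood at 6 h at 113 ± 2.07 CPM, between its 0 h level of 69.2 ± 7.51 and its 2 h level of 238 ± 14.8 CPM (SD, n = 3 each). GREB1, an estrogen-regulated gene, had 12.7, 28.4 and 26.4 CPM at 0 h and 87.7, 130 and 74.6 CPM at 2 h, and its 6 h values of 11.7, 11.4 and 11.8 CPM lay below every 0 h library.

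The promoters of KLF4 and KCNF1 are given for the other motifs searched. KLF4 (minus strand, chr9:107489770-107490019) held the G-quadruplex pattern, 4 runs of at least 3 G with 1 to 7 bases between them, on both strands, and the E-box CACGTG at -157, whose first C continues the last run of C in the G-quadruplex letters. KCNF1 (plus strand, chr2:10911684-10911933) held TGACGTCA, the full cyclic AMP response element, at -19. Capitals again mark every motif match.
KLF4: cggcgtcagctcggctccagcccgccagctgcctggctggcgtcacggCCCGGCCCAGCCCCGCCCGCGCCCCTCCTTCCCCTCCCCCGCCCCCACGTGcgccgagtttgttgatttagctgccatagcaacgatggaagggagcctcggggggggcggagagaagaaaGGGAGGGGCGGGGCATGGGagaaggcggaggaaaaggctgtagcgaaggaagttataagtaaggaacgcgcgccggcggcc
KCNF1: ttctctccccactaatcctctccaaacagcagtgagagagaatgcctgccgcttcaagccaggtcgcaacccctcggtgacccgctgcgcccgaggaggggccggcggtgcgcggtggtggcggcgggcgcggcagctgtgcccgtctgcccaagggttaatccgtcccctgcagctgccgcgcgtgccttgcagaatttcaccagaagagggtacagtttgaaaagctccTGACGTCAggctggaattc

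The G-quadruplex pattern occurred in 28 of the 88 member promoters (31.8%), in 40.7% of 275 held promoters, in 33.3% of the promoters of genes tested and in 8778 of all 35116 promoters. TATAAA was found in 10 member promoters (11.4%), against 6.57% of the promoters of genes tested and 11.5% of all promoters. The remaining counts were 8 promoters with TGANTCA (9.09%, against 5.55% of tested and 7.71% of all), 9 with CACGTG (10.2%, against 9.21% and 7.26%), 1 with TGACGTCA (1.14%, against 2.85% and 1.85%) and 3 with the CArG box of serum response factor (3.41%, against 0.914% and 1.29%). GGAATG and the CArG box were added after the members had been seen. All windows ran from 250 bases before to 50 bases after the start and were searched on both strands. Median GC content was 60.5% in the member promoters and 58.7% over all promoters, and the genes' median length, 30584 bases, and exon number, 6, were near those of all genes tested, 26304 bases and 7 exons.

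Channels and transporters contributed 13 genes. KCNF1, a modulatory subunit of voltage-gated potassium channels on chromosome 2 (10911934 to 10914225), had 13.9, 32.4 and 15.4 CPM at 0 h, 247, 303 and 208 CPM at 2 h and 30.7, 32.3 and 38.7 CPM at 6 h, a 2 h mean 12.3 times the 0 h mean with no overlap between 2 h and the other times. KCNK3, a background potassium channel, went from 9.32, 17.3 and 6.68 CPM to 34.2, 35.9 and 32.7 CPM and back to 11.5, 10.4 and 10.1 CPM. AQP5, a water channel, had 3.65, 4.22 and 3.16 CPM at 0 h, 17.9, 24.2 and 14.3 CPM at 2 h and 3.52, 3.17 and 4.23 CPM at 6 h, so that its 6 h values overlapped the 0 h ones. Of the 13 enzymes and lipid-handling genes, the short-chain dehydrogenase DHRS2 was 15.4 times higher at 2 h, going from 6.93 ± 1.49 to 106 ± 33.0 CPM, and the membrane carbonic anhydrase CA12 17.6 times higher, going from 0.609 ± 0.276 to 10.7 ± 2.33 CPM (SD, n = 3 each). By 6 h DHRS2 stood at 8.36 ± 2.11 CPM and CA12 at 0.786 ± 0.0739 CPM (SD, n = 3 each).

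The 4 interferon-inducible genes showed the lowest 6 h levels relative to 0 h of the role groups, with a median ratio of 0.469. GBP2, a guanylate-binding GTPase, had 2.28, 3.32 and 3.92 CPM at 0 h, 10.2, 18.6 and 6.46 CPM at 2 h and 0.618, 0.879 and 1.06 CPM at 6 h. GBP1, its neighbour on chromosome 1 and chosen here after its values were seen, ended at 9.95 ± 1.77 CPM against 21.9 ± 4.34 CPM at 0 h (SD, n = 3 each). In both GTPase genes every 6 h library lay below every 0 h library.

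MALAT1, a nuclear long non-coding RNA on chromosome 11 (65497738 to 65506516), had 278, 286 and 266 CPM at 0 h, 699, 1521 and 729 CPM at 2 h and 360, 302 and 330 CPM at 6 h. Replicate 2 at 2 h was more than 2 times the other 2 libraries, which themselves lay above every 0 h and 6 h value. TALAM1, transcribed antisense to MALAT1, was counted at 94.7% to 98.7% of the MALAT1 counts in the 18 B libraries but at 0% to 0.266% in the 6 A libraries, so the B counts of the pair cannot be told apart. The same holds for VIM-AS1 (34.4% to 59.4% of the VIM counts in the B libraries) and MIR147B (40.8% to 59.3% of those of its host gene). LINC00673 was 16.7 times higher at 2 h, going from 1.58 ± 1.19 to 26.4 ± 0.704 CPM, and kept 8.81 ± 0.647 CPM at 6 h (SD, n = 3 each).

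A total of 23 members lay within 500 kb of another member, in 10 runs, 9 of which were pairs such as GBP1 and GBP2. In 3 of the pairs, MALAT1 with TALAM1, VIM with VIM-AS1 and C15orf48 with MIR147B, the genes share their counts, and no such number was computed for all genes. The longest run held 5 genes on chromosome 2 between 10911934 and 11642788, in the order KCNF1, FLJ33534, C2orf50, SLC66A3 and GREB1. Among the 5 members the 2 h mean was 12.3 times the 0 h mean for KCNF1, 10.8 times for the non-coding FLJ33534, 2.80 times for C2orf50, 2.19 times for SLC66A3 and 4.34 times for GREB1. SLC66A3 was named because it lies in the run. The run was noticed after the values had been seen and was not tested.

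**Figure D3:**
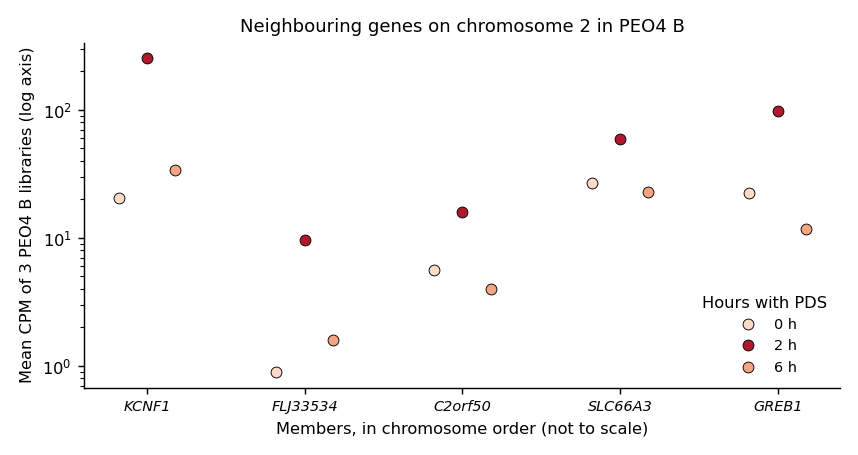
Mean CPM of 3 PEO4 B libraries at 0, 2 and 6 h (log axis) for the 5 members in 1 stretch of chromosome 2, in chromosome order and not to scale. The 2 h dot stands highest for KCNF1, FLJ33534, C2orf50, SLC66A3 and GREB1, which were chosen for that.

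PEO1 B, the line with restored BRCA2, was not used to choose the genes, and its libraries ask whether they move with PDS in the other line. Of the 116 genes, 5 were higher and 13 lower at 2 h than at 0 h with an adjusted p below 0.05 and more than 1 on the log2 scale (edgeR quasi-likelihood test, Benjamini-Hochberg adjustment over 17020 genes). The shares, 4.31% and 11.2%, compare with 1.18% higher and 6.39% lower among all genes tested. They depended on the scaling. With library totals in place of TMM, 1 member was higher and 15 were lower, against 120 and 1490 of the 17020 genes tested. In the main fit the members had a median log2 fold change of 0.01, against -0.03 over all genes and 0.37 for the 359 held genes. Of the held genes 32 were higher (8.91%) and 7 lower. The fit took in the PEO4 B libraries too, so the spread behind these tests came in part from the libraries that chose the genes. With only the PEO1 B libraries in the fit, 4 members were higher at 2 h, all of them among the 5. In that fit 13 members were lower, 12 of them among the 13 of the main fit. Because the filter on low counts was passed by all 116 genes through their 2 h level in PEO4 B, some members had few counts in PEO1 B. No gene in the table met the membership rule when it was applied to PEO1 B, where 50 genes reached the 2 h limits. A member rising in PEO4 B and not in PEO1 B is not thereby shown to differ between the lines, as the PEO4 B values had been chosen to be higher and the difference was not tested.

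**Figure D4:**
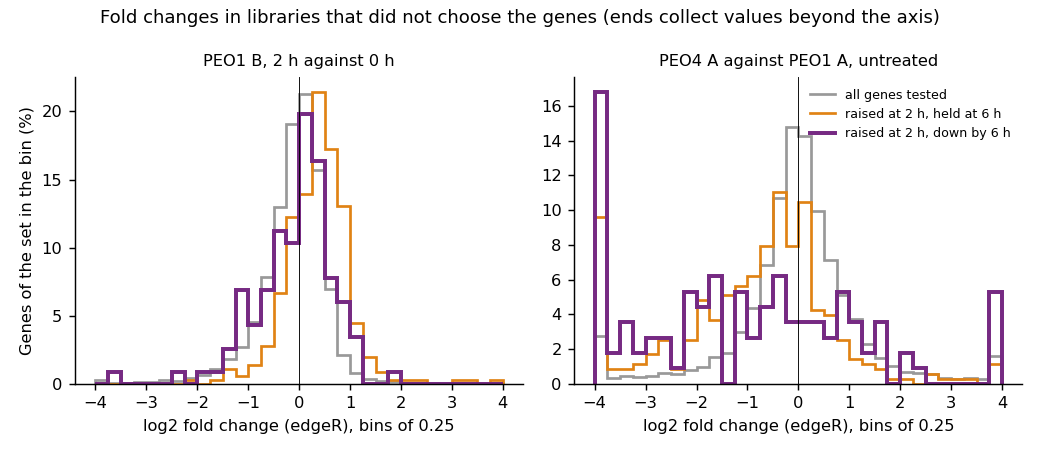
Percentage of each gene set in bins of 0.25 of the fitted log2 fold change, for PEO1 B at 2 h against 0 h and for untreated PEO4 A against PEO1 A, with the outermost bins collecting values beyond the axis. In PEO1 B the members lie around 0 (median 0.01) while the held genes lie higher (0.37), and in the A pair the members are shifted to lower values in PEO4 A (median -1.07).

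The 5 members that rose in PEO1 B at 2 h were CALB2, PTGER4, HMGN5, SULF2 and MDK. CALB2, the calcium-binding protein calretinin, had 7.64, 8.13 and 5.50 CPM at 0 h, 22.3, 23.5 and 22.1 CPM at 2 h and 20.3, 19.3 and 18.3 CPM at 6 h. Its log2 fold change at 2 h was 1.82 ± 0.12 (SE, with an adjusted p = 1.5e-11, edgeR quasi-likelihood, Benjamini-Hochberg adjusted), and it was still called higher at 6 h against 0 h, by 1.59. In PEO4 B the same gene went from 0.183, 0.374 and 0.100 CPM to 6.53, 8.08 and 6.84 CPM and then to 1.83, 2.08 and 2.31 CPM. PTGER4, a prostaglandin receptor, had 7.84, 7.06 and 7.64 CPM at 0 h and 12.9, 14.1 and 16.0 CPM at 2 h (log2 fold change 1.08). The nucleosome-binding protein HMGN5 (1.07), the heparan sulfate sulfatase SULF2 (1.01) and the growth factor midkine, MDK (1.01), all lay near the limit of 1. Scaled to library totals instead of TMM, CALB2 alone of the 5 stayed called, and higher calls made up 6.25% of the members called in place of 27.8%.

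Lower at 2 h in PEO1 B were 13 members, which became 8 without PEO1 B 0 h replicate 3, when GREB1, IGFBP5, PDZK1, TNFRSF18 and AZGP1 lost the call. CDH6 had 66.7, 71.9 and 66.5 CPM at 0 h, 21.2, 23.1 and 26.6 CPM at 2 h and 17.2, 16.7 and 14.4 CPM at 6 h, a log2 fold change of -1.38 ± 0.32 at 2 h (SE, with an adjusted p = 0.0026, edgeR quasi-likelihood, Benjamini-Hochberg adjusted). The 0 h libraries lay above all others and the 6 h libraries below the 2 h ones. KCNK3 had 7.03, 6.75 and 10.5 CPM at 0 h and 2.80, 2.13 and 2.02 CPM at 2 h (log2 fold change -1.66), and the urate transporter SLC2A9 had 6.16, 5.68 and 6.34 CPM, then 1.86, 1.93 and 2.05 CPM (log2 fold change -1.49). C2orf50 and GREB1 of the chromosome 2 run also fell, by 1.42 and 1.04 on the log2 scale, whereas KCNF1 had a log2 fold change of -0.40 that did not pass (adjusted p = 0.23, edgeR quasi-likelihood, Benjamini-Hochberg adjusted). AZGP1, a secreted zinc-binding glycoprotein, and TNFRSF18, a receptor of the tumour necrosis factor family, fell from mean levels under 1 CPM. TNFRSF18 had 3 counts over the 3 libraries at 2 h against 26 over those at 0 h, a ratio of 14.7 of 0 h to 2 h with an exact 95% interval of 4.51 to 75.9 that covers counting error only.

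Neither matricellular gene was called in PEO1 B at 2 h. CCN1 had 242, 183 and 226 CPM at 0 h and 248, 262 and 238 CPM at 2 h, which overlapped, with a log2 fold change of 0.35. CCN2 had 91.1, 53.5 and 88.6 CPM, then 51.2, 48.8 and 44.1 CPM, with every 2 h library below every 0 h library and a log2 fold change of -0.55. CCN2 was called lower at 6 h, at 29.9, 31.8 and 26.9 CPM, a log2 fold change of -1.25 ± 0.31 from 0 h (SE, with an adjusted p = 0.0042, edgeR quasi-likelihood, Benjamini-Hochberg adjusted). ANKRD1 also fell by 1.48 on the log2 scale at 6 h. INHBA stayed at 132 to 151 CPM at 0 h, 136 to 144 CPM at 2 h and 146 to 156 CPM at 6 h, and no PEO1 B comparison over time was called for it. KLF7 and KLF4 stood in untreated PEO1 B at 78.2 ± 8.71 and 49.0 ± 1.94 CPM (SD, n = 3 each), and had log2 fold changes of 0.21 and 0.52 at 2 h.

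Between 2 and 6 h no member was called higher or lower in PEO1 B by edgeR's quasi-likelihood test, against 0.0705% and 0.0999% of all genes. At an unadjusted p under 0.05 by the same test there were 24 members (20.7%), against 20.2% of all genes tested. By direction, 3 members were higher (2.59%) and 21 lower (18.1%). Of all genes tested, 1866 were higher (10.96%) and 1571 lower (9.23%). The totals were thus close, but the members leaned to lower values and all genes did not. Whether this lean exceeds chance was not tested. The DESeq2 Wald test also called 0 members. Against 0 h, the 6 h libraries had 1 member higher, CALB2, and 12 lower, against 1.29% and 6.83% of all genes tested. The median change of the members from 2 to 6 h was -0.08 on the log2 scale, where the rule had required a drop of at least 1 in PEO4 B.

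In the B pair the untreated PEO1 B mean exceeded the untreated PEO4 B mean for 71 of the 116 genes, and for 19 it exceeded the PEO4 B mean at 2 h. Among the 19, LOXL2, a collagen cross-linking oxidase named after its values were seen, had 60.9, 73.8 and 62.1 CPM in untreated PEO1 B, against 17.0, 14.8 and 14.6 CPM in PEO4 B at 2 h. These counts rest partly on the PEO4 B libraries that chose the genes, and no test is given.

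The libraries of the A pair played no part in the choice, so a test was run on them. PEO4 A is, however, the same line as PEO4 B, and untreated as at 0 h. By asking for a 2 h mean of at least 2 times the 0 h mean, the rule favoured genes low in untreated PEO4. A lower level in PEO4 A may therefore follow in part from the choice, and how far was not tested. Of 113 members tested, 58 were lower (51.3%) and 19 higher (16.8%) in PEO4 A than in PEO1 A with an adjusted p below 0.05 and more than 1 on the log2 scale (edgeR quasi-likelihood test, Benjamini-Hochberg adjustment over 15882 genes). Among all genes tested 13.1% were lower and 12.6% higher. The median log2 fold change was -1.07 for the members, -0.59 for 354 held genes, of which 39.3% were lower, and -0.01 for all genes. TALAM1, MIR147B and 1 unnamed locus did not pass the filter in this table. Levels of the A and B tables were scaled separately and are compared here only within a table.

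By role group, assigned by hand after the members had been seen, 16 of 23 cytoskeletal and adhesion genes and 15 of 22 secreted and matrix genes were lower in PEO4 A. The other groups had 12 of 25 transcription and signalling regulators, 7 of 13 channels and transporters, 4 of 13 enzymes, 3 of 7 non-coding RNAs tested, 1 of 6 unassigned and 0 of 4 interferon-inducible genes lower, and 3 of the unassigned and 2 of the interferon-inducible genes were higher. Over all genes tested 13.1% were lower, and no share was computed for all genes of a role. Of the mesenchymal list, members and non-members together, 10 of 13 genes tested were lower and 0 higher in PEO4 A. VIM had 0.376, 0.982 and 0.461 CPM in PEO4 A and 316, 290 and 293 CPM in PEO1 A, a log2 fold change of -9.05 ± 0.22 (SE, with an adjusted p = 4.1e-10, edgeR quasi-likelihood, Benjamini-Hochberg adjusted). INHBA had 0.329, 0.337 and 0.676 CPM against 207, 211 and 221 CPM, and IGFBP5 had 0.282, 1.35 and 2.09 CPM against 355, 249 and 244 CPM. CALB2 had 0 to 2 counts in each PEO4 A library, 2 in all, against 797 over the 3 PEO1 A libraries, a ratio of 379 with an exact 95% interval of 104 to 3132 for counting error only. The 2 groups did not overlap for any of these 4 genes, nor for CA12 (3.92 ± 0.416 against 119 ± 4.94 CPM, SD, n = 3 each) or BNC2, a zinc finger protein (1.13 ± 0.190 against 74.0 ± 3.90 CPM, SD, n = 3 each). CCN1, CCN2 and ANKRD1 were lower as well, with log2 fold changes of -1.79, -1.70 and -3.39.

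The largest log2 fold changes among the 19 higher genes were those of MAG, TMEM132E, AQP5 and TNFRSF18. TMEM132E, a membrane protein, had 126, 203 and 196 CPM in PEO4 A and 0.781, 1.18 and 1.02 CPM in PEO1 A (log2 fold change 7.47). AQP5 had 18.7, 27.0 and 32.3 CPM against 0.288, 0.321 and 0.794 CPM. MAG, the myelin-associated glycoprotein, had 295 counts over the PEO4 A libraries and 1 over those of PEO1 A, a ratio of 310 with an exact 95% interval of 55.3 to 12305 for counting error only. For GREB1 the PEO4 A libraries spread from 53.1 to 206 CPM around PEO1 A values of 56.3 to 64.8 CPM, and its log2 fold change of 0.90 did not pass the test (adjusted p = 0.23, edgeR quasi-likelihood, Benjamini-Hochberg adjusted).

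**Figure D5:**
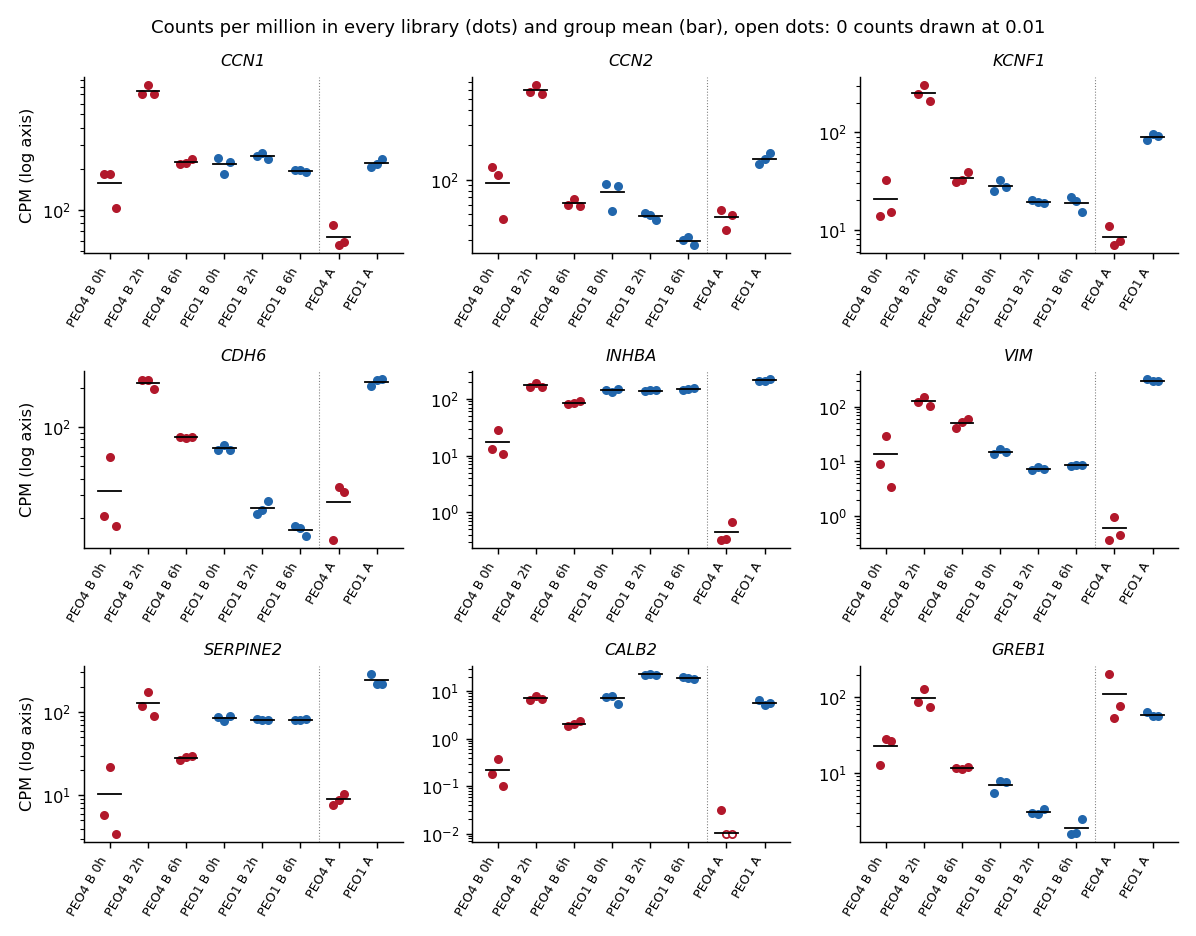
CPM on a log axis in every library of the 8 groups for 9 members, with 1 dot per library, a bar at the mean of 3 and the A pair to the right of the dotted line. In PEO4 B the 2 h dots stand above the 0 h and 6 h dots in every panel by choice, in PEO1 B CALB2 rises while CDH6 and GREB1 fall, and INHBA, VIM and CALB2 are near the bottom of the axis in PEO4 A.

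A total of 13 lists of rapid-response and stress genes, 173 genes in all and 166 of them tested, held 7 members in 4 lists, 4.22% of the listed genes tested against 0.682% of all genes tested. The lists were chosen with earlier results of these data known, so nothing is read from this share. NR4A3, CCN1 and CCN2 came from 30 immediate early genes, KLF4 and KLF7 from 9 KLF genes, INHBA from 16 BMP and TGF-beta genes and OSGIN1, a target of the oxidative stress factor NRF2, from 8 NRF2 genes. The lists for MAPK feedback, Notch, the integrated stress response, p53, NF-kB, heat shock, hypoxia, circadian and cyclic AMP genes held none. A further 11 genes of the lists were among the held genes, including FOSL1, SRF, DUSP4, DUSP6, KLF6, CXCL1 and CXCL8. Over all 13 lists, 24 genes had a 2 h mean of at least 2 times the 0 h mean in PEO4 B (14.5%, against 5.90% of all genes tested) and 30 had one of 50% or less (18.1%, against 14.6%). Of the 29 immediate early genes tested, 7 were at least 2 times higher and 10 at 50% or less. These numbers were 2 and 6 of 16 BMP and TGF-beta genes, 3 and 2 of 9 KLF genes and 1 and 0 of 8 NRF2 genes.

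Members close to the limits of the rule differed little from genes just outside. POLR3GL was inside with a ratio of 2.00 between 2 h and 0 h and JARID2 outside with 1.99. CGREF1 was inside with a ratio of 0.496 between 6 h and 2 h and LY75 outside with 0.506. Of the limit on level, BNC2 lay inside at 5.52 CPM and RTN2 outside at 4.99 CPM.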

How the data were processed

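RNA-seq was measured in 24 libraries, 18 of the B pair and 6 of the A pair. The authors deposited whole-number counts per gene, and the submitters' processing notes name FastQC, fastp, STAR, featureCounts and the hg38 build. Versions, annotation and strand setting are not given in the sources used here, so counts of overlapping and antisense genes are uncertain. Lines without readable counts were left out (1 in the B table, 2 in the A table). Members and lists were chosen with earlier results of these data known. CPM values (1e6 times the count over the column total) are not per length. Genes were tested with edgeR 4.0.16 (R 4.3.3): filterByExpr (at least 10 counts), TMM scaling, robust quasi-likelihood fit with 1 mean per group, Benjamini-Hochberg adjustment over 17020 (B) or 15882 (A) genes, called where the adjusted p was below 0.05 and the change more than 1 on the log2 scale. DESeq2 1.42.0 was an alternative. On simulated data with 4-fold changes, 198 of 200 changed genes were recovered among 16649 for PEO1 B at 2 h against 0 h, with 4 false calls, and 192 of 197 among 15687 for the A pair, with 8 false calls. The simulation used the same mean for every group apart from these changes, with as many genes raised as lowered. It therefore says nothing about changes near the limit or about the choice of scaling. The labels call the replicates biological without saying that cultures were separate, and p-values measure only the spread between these samples. No pair of replicates agreed within sampling noise (lowest chi-square per degree of freedom 2.13).

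Named genes were the 10 members with the highest 2 h CPM, the 10 with the largest ratio of 2 h to 0 h (0 h mean of at least 0.5 CPM), the 10 with the smallest ratio of 6 h to 2 h, the 5 highest and 5 lowest called in PEO1 B at 2 h, the 4 highest and 4 lowest called in the A pair, list members, and the 3 nearest each limit. Others are named where a list, a neighbouring member or a called count includes them. Role groups were assigned by hand after the members had been seen. Coordinates and promoters are RefSeq GRCh38.p14, which matched 115 members and gave 88 promoters. All B libraries were fitted together, and the A libraries apart from them. Alternatives covered the scaling, the filter, the tool, the call rule, the limits of the rule, the replicate block, a fit of the PEO1 B libraries alone and each library left out. Some genes of the lists and the non-members of the chromosome 2 stretch are not reported here.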

Additional observations from a re-analysis of the deposited data

Results flagged for a closer look

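The following 13 members were called lower in PEO1 B at 2 h, with every 2 h library below every 0 h library, whereas in PEO4 B every 2 h library lay above every 0 h library, the direction the rule chose. They are listed for these opposite directions, of which the one in PEO4 B was set by the rule for all 116 genes. The difference between the lines was not tested, since the PEO4 B libraries chose the genes. Of the members 11.2% were called lower in PEO1 B at 2 h, against 6.39% of all genes tested. How many of all called genes also had no overlap was not counted, so nothing is read from the lack of overlap. Fitted log2 fold changes in PEO1 B at 2 h against 0 h were -3.56 for TNFRSF18, which has 0 to 2 counts per library at 2 h and so depends on the prior count, -2.33 for AZGP1, -1.66 for KCNK3, -1.49 for SLC2A9, -1.42 for C2orf50, -1.38 for CDH6 and -1.22 for PNPLA3. They were -1.18 for the lipid transporter ABCA3, -1.17 for the actin nucleator FMN1, -1.04 for RASGRP1, GREB1 and PDZK1 and -1.01 for IGFBP5. Without PEO1 B 0 h replicate 3, TNFRSF18, AZGP1, GREB1, PDZK1 and IGFBP5 were no longer called.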

How the results depend on the processing

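The 116 genes became 201 with a limit of 1 CPM at 2 h, 366 with factors of 1.5 and 42 with factors of 3, and 96 (without PEO4 B 2 h replicate 2) to 144 (without PEO4 B 2 h replicate 3) when 1 library was left out. TMM scaling gave 141, of which 112 were among the 116. In PEO1 B at 2 h the 5 higher members became 1 with library totals, 3 with a filter of 1 CPM in 3 libraries and 29 by adjusted p alone, and 3 (without PEO1 B 0 h replicate 1) to 8 (without PEO1 B 0 h replicate 2) when 1 library was left out. The 13 lower became 24 by adjusted p alone and 8 (without PEO1 B 0 h replicate 3) to 12 with 1 library left out. Counts by adjusted p alone stand here without those over all genes tested, so nothing is read from them at any time. At an unadjusted p under 0.05 by the edgeR quasi-likelihood test, 29 members were higher and 25 lower at 2 h. Over the 17020 genes tested these numbers were 4855 and 4939. Library totals shifted the median of all genes by -0.147 at 2 h and -0.146 at 6 h (log2), and the share of higher among called members went from 27.8% to 6.25%, and among all called genes from 15.6% to 7.45%. From 2 to 6 h, adjusted p alone gave 2 higher and 9 lower members and leaving out 1 library 0 to 1 in each direction, 1 higher without PEO1 B 2 h replicate 1 or 3 or 6 h replicate 1 or 2, and 1 lower without 6 h replicate 2. At 6 h against 0 h, adjusted p alone gave 25 higher and 26 lower, and leaving out 1 library 1 to 3 higher (2 without any 1 of the 0 h replicates, 3 without 6 h replicate 3) and 12 to 14 lower. In the A pair it gave 17 to 18 higher and 56 to 59 lower. PTGER4, HMGN5, SULF2 and MDK lost their call with library totals, and TNFRSF18, AZGP1, GREB1, PDZK1 and IGFBP5 lost theirs without PEO1 B 0 h replicate 3. No named gene reversed under the alternatives run, and the cause of these shifts was not tested.

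Replicate numbers are shared between groups, but deviations of same-numbered libraries correlated by only -0.043 to 0.134, so the numbers were not taken as pairs. With a replicate block, 5 members were higher and 13 lower in PEO1 B at 2 h, 1 higher and 12 lower at 6 h against 0 h, 0 and 0 from 2 to 6 h, and 17 higher and 58 lower in the A pair. With only the PEO1 B libraries in the fit, 1 member was higher and 12 were lower at 6 h against 0 h. From 2 to 6 h that fit called 0 higher and 0 lower.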
